A study of Mus musculus with 6 samples.

Results

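The subunits of respiratory complex I encoded in the nucleus were followed through RNA sequencing of mouse bone marrow-derived cells. They were taken by symbol, as every gene whose name is Nduf followed by a, b, c, s, v or ab and then a digit, which leaves out the assembly factors named Ndufaf. The rule found 38 of the 24410 genes in the table. The cells came from 3 Txnip -/- samples (KO 1 to KO 3) and 3 wild-type samples (WT 1 to WT 3), all of mice of strain C57BL/6 aged 5 months. In both genotypes, lineage-negative marrow cells had been expanded for 3 days with stem cell factor (100 ng/mL) and thrombopoietin (20 ng/mL), and CD41+ cells were then sorted. The labels describe neither the Txnip allele nor whether each sample came from a separate mouse, so p-values measure only the spread between these samples. The series title places the comparison in the study of Txnip during megakaryocyte development.

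Complex I, the NADH:ubiquinone oxidoreductase, is the entry point of the respiratory chain: it passes electrons from NADH to ubiquinone and pumps protons across the inner mitochondrial membrane. Its L shape has a matrix arm, with an N module that oxidises NADH and a Q module that reduces ubiquinone, and a membrane arm that pumps protons. Core subunits, conserved from bacteria, carry the cofactors and the catalysis, and accessory subunits surround them and are needed for assembly and stability. The proton-pumping core of the membrane arm is encoded in mitochondrial DNA and is not analysed here. Txnip, the gene deleted in the knockout, encodes a thioredoxin-binding alpha-arrestin that restrains glucose uptake.

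Levels are in FPKM, which corrects a gene's fragments for transcript length and for the mapped fragments of its library, so that genes can be set side by side. Txnip was at 0, 0.04 and 0 FPKM in KO 1 to KO 3, against 112, 228 and 143 FPKM in WT 1 to WT 3, a difference of −7.26 (SE 0.28; limma, adjusted p = 2e-05) that matches the labels. All 10 megakaryocyte markers examined were above 1 FPKM in every library, with Itga2b, which encodes CD41, between 83.2 and 152 FPKM; the granulocyte and monocyte genes Mpo, up to 1640 FPKM, and Lyz2, up to 1533 FPKM, were abundant as well. In such bulk samples, fewer cells of a type and less RNA per cell cannot be told apart. Differences between genotypes are given as KO minus WT on the log2(FPKM + 1) scale, which understates the change of low genes, and were tested with limma over all 11249 genes that reached 1 FPKM in 3 or more libraries. A gene was called where its p, adjusted by Benjamini and Hochberg over these genes, was under 0.05. Same-numbered KO and WT libraries are spoken of as a pair.

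Complex I genes were expressed at substantial and uneven levels. Of the 38 members, 37 entered the test; Ndufa4l2 did not, with 0.18, 1.22 and 0.96 FPKM in KO 1 to KO 3, against 0.46, 0.66 and 0.88 FPKM in WT 1 to WT 3. It encodes a hypoxia-induced relative of Ndufa4. Among the tested members the mean level over all libraries ran from 11.8 FPKM for Ndufa11 to 484 FPKM for Ndufa4, with a median of 104 FPKM, and 28 of them lay between 50 and 200 FPKM. In each library the median over all 38 members was several times that over all tested genes, at 79.1, 129 and 104 FPKM in KO 1 to KO 3 and 95.6, 126 and 117 FPKM in WT 1 to WT 3, beside 15.6, 12.9 and 13.8 FPKM and 14.7, 12.2 and 13.0 FPKM for all tested genes.

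**Figure D1:**
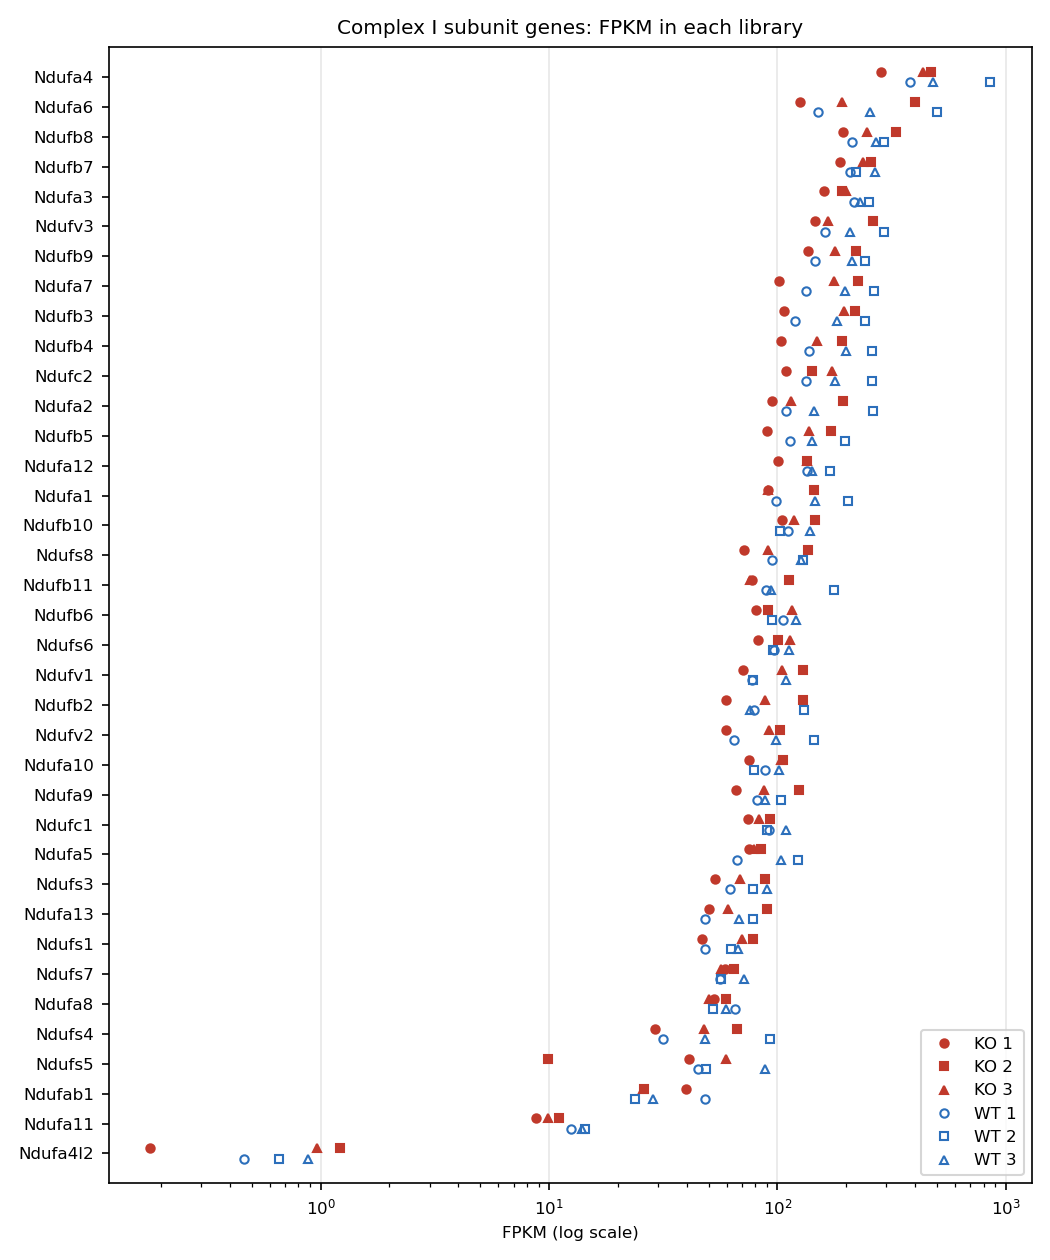
FPKM (log axis) of 37 of the 38 complex I genes in each library, ordered by mean level, with KO libraries as filled red symbols above the open blue WT symbols of the same gene. Most genes lie between 50 and 200 FPKM, KO 1 is often the lowest point and WT 2 often the highest, and Ndufs5 has a single low point at 9.91 FPKM in KO 2.

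The promoters of the members rarely held the motifs searched. RefSeq promoters on GRCm38.p6, from 250 bases before to 50 after a start, were found for 33 of the member genes, 35 promoters in all. The palindromic motif of NRF1, a factor of mitochondrial gene expression, was in 1 of the 35 (2.86%), that of Ndufa11, and in 0.971% of all 32851 promoters. The motif CCGGAAG, of the ETS family to which the mitochondrial regulator GABP belongs, was searched on both strands and was in 4 of the 35 (11.4%), those of Ndufs3, Ndufs8, Ndufb6 and Ndufb7, and in 8.86% of all promoters. The motifs do not overlap each other in these windows, which show matches on the gene's own strand upstream of a start; capitals mark the motif. Ndufa11 is shown as the least abundant tested member, Ndufs3 as a core subunit and Ndufb7 as an accessory subunit.
Ndufa11, chr17:56717677-56717736, plus strand: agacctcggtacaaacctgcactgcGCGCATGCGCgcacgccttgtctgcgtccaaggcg
Ndufs3, chr2:90904722-90904773, minus strand: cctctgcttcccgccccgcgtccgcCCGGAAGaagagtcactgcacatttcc
Ndufb7, chr8:83566713-83566757, plus strand: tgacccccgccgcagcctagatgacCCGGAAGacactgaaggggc
A match is a run of letters, not a measured binding site, and no binding was measured in these samples.

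No complex I gene passed the test between genotypes. Of the 37 tested, 0 were called higher and 0 lower, where 0.00889% of all tested genes were called higher and 0.00889% lower. An unadjusted p under 0.05 was reached by 0 members. Of all 11249 tested genes, 30 reached it with lower and 46 with higher values in KO. With the replicate number as a block in limma, 0 members were called in either direction as well, against 0.0178% of all genes called higher and 0.00889% lower, and the adjusted p of the members lay between 0.683 and 0.981. The SEs of single genes given below are from the fit without the block unless stated, and include the spread between replicate numbers. In the fit with the block, 10 members had an unadjusted p under 0.05 with lower values in KO and 0 with higher values. Among all 11249 tested genes, 256 (2.28%) reached it with lower values and 524 with higher values. The differences that went without a call were small: 36 of 37 lay within 0.5 of 0, the exception being Ndufs5 at −0.96.

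On the deposited scale the members lay mostly on one side. The difference was below 0 in 31 members and above 0 in 6, where 36.6% of all tested genes were below 0, and the median was −0.19 for complex I against 0.06 for all tested genes. In 18 members the KO library was below its WT partner in 3 of 3 pairs, where 8.68% of all tested genes were; in 0 members it was above in 3 of 3 pairs, where 20.4% of all tested genes were. The KO libraries lay below all WT libraries in 2 members, Ndufa3 and Ndufa11, where 1.03% of all tested genes did so, and above in 0 members, where 3.32% did so. The counts over members carry no p-value, since subunits were sequenced in the same 6 libraries and are not replicates of each other.

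The split was not even over the pairs. In pair 1, 34 of 37 members were lower in KO, with a median of −0.21; in pair 3, 32 were lower, with a median of −0.16. In pair 2, 21 were lower and 16 higher, with a median of −0.13 and a wide spread, from −2.19 for Ndufs5 and −0.86 for Ndufc2 to 0.51 for Ndufb10 and 0.71 for Ndufv1. Over all 11249 tested genes the medians were 0.04, 0.09 and 0.05 in pairs 1 to 3, with 5008, 4619 and 4721 lower in KO. KO 1 held the lowest value of 29 members and WT 2 the highest of 19. The members together made up 0.597%, 0.777% and 0.751% of all FPKM in KO 1 to KO 3, against 0.661%, 0.824% and 0.793% in WT 1 to WT 3, once the noncoding Rpph1 and Rmrp, which took between 10.7% and 30.4% of a library's FPKM, were left out of the total; with both included, the shares were 0.474%, 0.691% and 0.638% in KO 1 to KO 3, against 0.558%, 0.573% and 0.708% in WT 1 to WT 3, and pair 2 turned round.

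How far the values lie below 0 depended on the scaling and on single libraries. With the libraries rescaled to a common FPKM sum, the complex I median was −0.01 with 19 of 37 members lower. The median over all 11249 tested genes was 0.22 with 1503 lower. Leaving Rpph1 and Rmrp out of that sum gave −0.08 with 23 lower, beside 0.16 with 2204 lower over all genes. Quantile normalization gave −0.13 with 28 lower, beside 0.01 with 5430 lower. Median-ratio scaling gave −0.27 with 35 lower, beside −0.01 with 5836 lower. Without KO 1 the complex I median was 0.00 with 18 members lower, and without WT 2 it was −0.06 with 23 lower, each beside 0.01 for all genes. Without KO 2 it was −0.32 with 37 lower, beside 0.11, and without WT 1 −0.34 with 33 lower, beside 0.13. Each of these drops left the replicate numbers uneven between the genotypes. With a whole pair left out, under the block, the complex I median was −0.17, −0.18 and −0.16 without pairs 1, 2 and 3. There 26, 36 and 28 members were lower, and the medians of all genes were 0.07, 0.05 and 0.07.

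**Figure D2:**
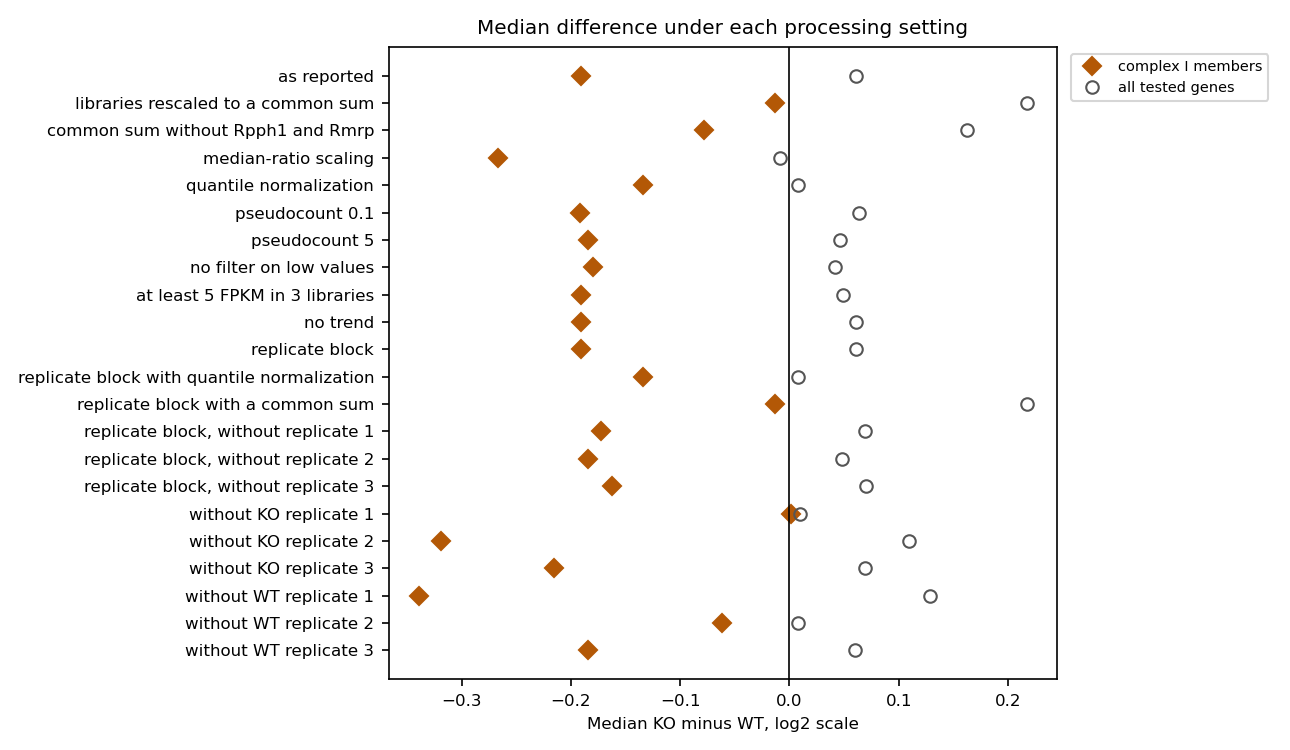
Median KO minus WT difference on the log2 scale of the complex I members (diamonds) and of all tested genes (open circles) under each processing setting. The complex I median is −0.19 as reported, reaches −0.01 with a common sum, where that of all genes is 0.22, and both medians lie within 0.01 of each other without KO replicate 1.

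The core subunits lay on both sides of 0. Of the 7 encoded in the nucleus, 4 had lower and 3 higher values in KO, 0 were called, and the median was −0.03. With a common FPKM sum it was 0.15, and 0.09 where Rpph1 and Rmrp were left out of that sum. The medians of all tested genes were then 0.22 and 0.16. Pair 2 stood apart from the others, with 1 of 7 lower in KO, against 6 of 7 in pair 1 and 6 of 7 in pair 3.

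In the N module, Ndufv1, which binds NADH and the flavin that first takes its electrons, was at 71.0, 129 and 105 FPKM in KO 1 to KO 3, against 77.7, 78.5 and 109 FPKM in WT 1 to WT 3. Ndufs1, the large subunit that carries iron-sulfur clusters of the electron path, was at 46.9, 77.9 and 69.9 FPKM in KO and 48.4, 62.9 and 67.1 FPKM in WT. Ndufv2, another iron-sulfur subunit, was at 59.4, 103 and 91.9 FPKM in KO and 64.5, 145 and 98.5 FPKM in WT. The genotypes overlapped in all of these genes, KO 2 was the highest library for Ndufv1 and Ndufs1, and WT 2 was the highest for Ndufv2. Their differences were 0.17 (SE 0.27) for Ndufv1, 0.11 (SE 0.25) for Ndufs1 and −0.23 (SE 0.33) for Ndufv2 (limma, adjusted p = 1.00 for each).

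In the Q module, Ndufs7, the carrier of the last iron-sulfur cluster before ubiquinone, was at 59.1, 64.3 and 56.6 FPKM in KO 1 to KO 3, against 56.3, 56.8 and 71.1 FPKM in WT 1 to WT 3. Ndufs7 varied little among the libraries, its highest library being 1.26 times its lowest. Ndufs3, a structural subunit of the module, was at 53.1, 88.7 and 68.9 FPKM in KO and 61.7, 78.3 and 89.8 FPKM in WT. Ndufs8, an iron-sulfur subunit next to the membrane, was at 71.5, 136 and 91.3 FPKM in KO and 94.5, 129 and 127 FPKM in WT. The genotypes overlapped in Ndufs3, Ndufs7 and Ndufs8, whose differences were −0.14 (SE 0.25), −0.03 (SE 0.19) and −0.26 (SE 0.27) in that order (limma, adjusted p = 1.00 for each).

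Accessory genes of the matrix arm were lower in KO in 9 of 9, with a median of −0.25 (7 of 9 and −0.07 with a common sum) and 0 called; 6 of them were lower in 3 of 3 pairs. Ndufa12, a subunit related to an assembly factor, was at 101, 134 and 135 FPKM in KO 1 to KO 3, against 135, 170 and 141 FPKM in WT 1 to WT 3. Ndufa5, bound to the Q module, was at 74.8, 85.0 and 79.3 FPKM in KO and 66.7, 123 and 103 FPKM in WT. Ndufa2, which has a thioredoxin-like fold, was at 94.4, 193 and 115 FPKM in KO and 110, 261 and 145 FPKM in WT. WT 2 was the highest library for all of these, and each overlapped between genotypes.

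Ndufa6, a protein that binds the acyl carrier subunit, was the most abundant of this group at 125, 401 and 193 FPKM in KO, against 151, 500 and 254 FPKM in WT. Its differences were −0.26, −0.32 and −0.40 in pairs 1 to 3, while its level in the number 2 libraries was 3.27 times that in the number 1 libraries. Ndufs4, whose loss in mice causes a mitochondrial encephalopathy, was the least abundant at 29.2, 66.3 and 47.6 FPKM in KO and 31.7, 93.2 and 48.2 FPKM in WT. The differences of these 5 genes lay between −0.33 for Ndufa6 (SE 0.51) and −0.21 for Ndufs4 (SE 0.42; limma, adjusted p = 1.00 for each). With the block, the SEs were 0.14 for Ndufa6 and 0.15 for Ndufs4 (limma, adjusted p = 0.717 and 0.821). The remaining members of the group, Ndufa7, Ndufa9, Ndufs6 and Ndufv3, differed by between −0.26 and −0.02.

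Accessory genes of the proximal membrane arm, the part next to the matrix arm, had a median of −0.34 with 7 of 9 lower in KO (−0.17 and 6 of 9 with a common sum), 5 of them in 3 of 3 pairs, and 0 called. Ndufa11, a membrane subunit, was at 8.80, 11.0 and 9.91 FPKM in KO 1 to KO 3, against 12.5, 14.4 and 13.9 FPKM in WT 1 to WT 3. This gene was the least abundant tested member and the genotypes did not overlap: its means were 9.91 ± 1.11 FPKM in KO and 13.6 ± 0.99 FPKM in WT (SD, n = 3 each). The difference was −0.42 (SE 0.21; limma, adjusted p = 1.00; adjusted p = 0.683 with the block) and −0.46, −0.36 and −0.45 in pairs 1 to 3. It stayed between −0.49 and −0.35 whichever library or pair was left out, with and without the block, and between −0.51 and −0.26 under the other scalings.

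Ndufa3, a small membrane protein, was at 160, 192 and 200 FPKM in KO, against 217, 251 and 231 FPKM in WT, again with no overlap. Its difference was −0.34 (SE 0.20; limma, adjusted p = 1.00), and −0.17 with a common FPKM sum. Genotype accounted for 80.9% of the variation of Ndufa11 among the libraries and 68.7% of that of Ndufa3.

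Ndufs5, a protein of the intermembrane space side, was at 41.1, 9.91 and 59.6 FPKM in KO, against 44.8, 48.9 and 87.8 FPKM in WT. KO 2 lay far below the other libraries, and the genotypes overlapped. The difference was −0.96 (SE 0.58; limma, adjusted p = 1.00) and −0.22 without KO 2. In the fit with the block, Ndufs5 was called without pair 1 (−1.37, limma, adjusted p = 2.81e-05) and without pair 3 (−1.16, adjusted p = 0.000164), and not without pair 2 (−0.34, adjusted p = 0.278) or with all pairs (adjusted p = 0.683). The pairs left in were −2.19 and −0.55 without pair 1, and −0.12 and −2.19 without pair 3. In these fits limma moderated the SEs (0.25 and 0.23) over all genes. The p-values of both calls thus do not measure the spread of Ndufs5 between its own pairs. No other member was called under any alternative. The deposited values came from RSEM, which shares reads between similar transcripts by estimation. The files hold no counts against which the KO 2 value of Ndufs5 could be checked; it may be an error of that estimate, which was not tested. Of the other members of this group, the X-linked Ndufa1 differed by −0.43 (SE 0.31) and Ndufc2 by −0.40 (SE 0.29), while Ndufa13, also known as GRIM-19, and Ndufa10 were at 0.03 and 0.07. Ndufa8 and Ndufc1, at −0.12 and −0.22, completed the group, and the genotypes overlapped in each of these.

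Accessory genes of the distal membrane arm, the Ndufb subunits, were lower in KO in 9 of 10, with a median of −0.12 and 0 called. Under a common sum the median was 0.06 with 3 of 10 lower, beside 0.22 with 1503 of 11249 lower for all tested genes. Ndufb4, a subunit of the membrane arm, was at 104, 192 and 149 FPKM in KO 1 to KO 3, against 138, 258 and 200 FPKM in WT 1 to WT 3. The pairs gave nearly one value, −0.41, −0.43 and −0.42, while the genotypes overlapped, with the number 1 library the lowest and the number 2 library the highest of each. Ndufb11, which is X-linked, was at 77.3, 112 and 76.2 FPKM in KO and 88.8, 177 and 93.6 FPKM in WT. Ndufb6 was at 80.9, 91.0 and 115 FPKM in KO and 106, 94.6 and 121 FPKM in WT. The differences were −0.42 (SE 0.31) for Ndufb4, −0.38 (SE 0.30) for Ndufb11 and −0.17 (SE 0.22) for Ndufb6 (limma, adjusted p = 1.00 for each). With the block, their SEs were 0.14, 0.15 and 0.15 in that order (limma, adjusted p = 0.683, 0.684 and 0.839).

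Ndufb8, the most abundant of the group, was at 193, 330 and 246 FPKM in KO, against 211, 291 and 269 FPKM in WT. Ndufb2, the lowest of the group by mean level, was at 59.3, 129 and 88.1 FPKM in KO and 78.9, 131 and 76.0 FPKM in WT. Both genes overlapped between genotypes, with differences of −0.03 (SE 0.26) and −0.07 (SE 0.33). Ndufb10, at 0.07, was the single member of the group above 0. The remaining members, Ndufb3, Ndufb5, Ndufb7 and Ndufb9, differed by between −0.19 and −0.04, and the genotypes overlapped in each.

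Ndufab1 and Ndufa4 belong to no single arm. Ndufab1, the mitochondrial acyl carrier protein, is bound in both arms and also serves fatty acid synthesis; it was at 39.6, 26.1 and 25.7 FPKM in KO 1 to KO 3, against 48.1, 23.8 and 28.7 FPKM in WT 1 to WT 3. Ndufab1 was one of 4 tested members with a lower mean in the number 2 than in the number 1 libraries, at 0.569 times. Ndufa4, named for complex I but since placed with complex IV, cytochrome c oxidase, was at 285, 472 and 435 FPKM in KO and 379, 852 and 478 FPKM in WT. WT 2 was the highest of its libraries, and it was lower in KO in 3 of 3 pairs, with a difference of −0.47 (SE 0.35; limma, adjusted p = 1.00).

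**Figure D3:**
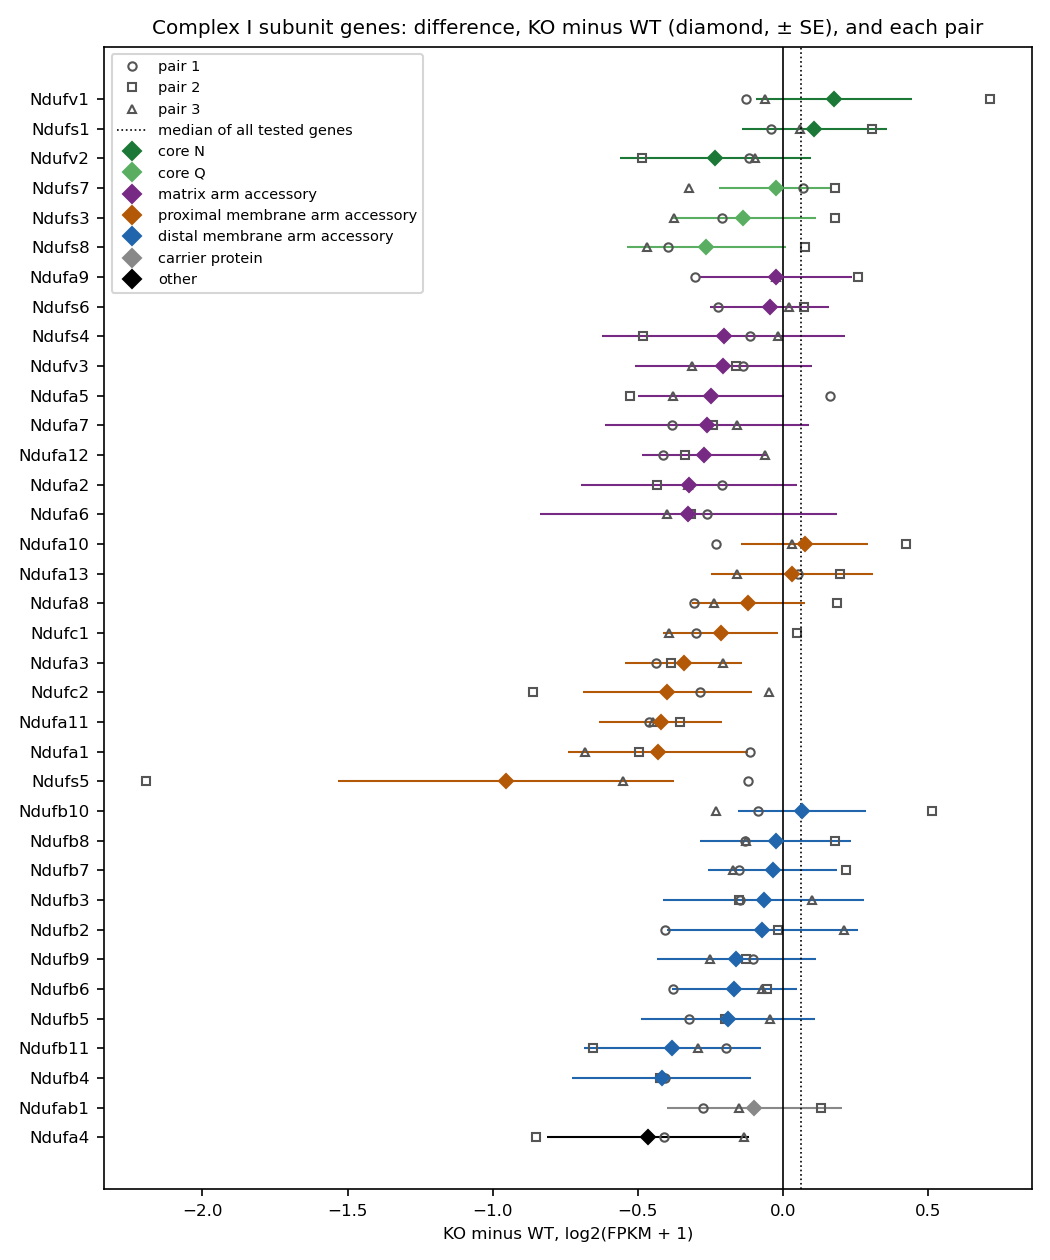
KO minus WT on the log2(FPKM + 1) scale for 36 of the 37 tested members, grouped by place in the complex, with limma's estimate and SE (diamonds and bars) and the value of each pair (open symbols). Core subunits lie on both sides of 0, accessory subunits of the matrix arm all lie below it on the deposited scale, and Ndufs5 in pair 2 is at −2.19.

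Most members varied more with the replicate number than with genotype. The number has more levels than genotype, which by itself gives it a larger share. On the log2(FPKM + 1) scale, the number accounted for a median of 75.1% of a member's variation over the 6 libraries and genotype for 7.48%, close to the medians of 73.4% and 5.57% over all tested genes. Genotype had the larger share in 4 members, Ndufa3, Ndufa8, Ndufa11 and Ndufc1. In 33 of 37 members the mean was higher in the number 2 than in the number 1 libraries, with a median ratio of 1.54, where the median over all tested genes was 0.869 and that over 77 cytosolic ribosomal protein genes 2.11. The highest library exceeded the lowest by more than 2-fold in 16 members.

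Some other gene groups were also mostly lower in KO on the deposited scale, with 0 genes called in each. Cytosolic ribosomal protein genes made up 13.9%, 27.0% and 19.1% of all FPKM in KO 1 to KO 3, against 16.7%, 21.3% and 22.4% in WT 1 to WT 3. The share was lower in KO in pairs 1 and 3 and higher in pair 2. Its total includes Rpph1 and Rmrp, at 11.0% of FPKM in KO 2 and 30.4% in WT 2. Gene by gene, 47 of the 77 ribosomal protein genes were lower in KO in pair 2, with a median of −0.15. Of these genes, 71 of 77 had lower values in KO, with a median of −0.23 (−0.05 with a common sum and −0.01 with quantile normalization) and 0 called. The mast cell and basophil markers examined were lower in KO in 5 of 5 (4 of 5 with a common sum), with none of them at 0, and their summed level was 383 to 958 FPKM in KO and 690 to 1145 FPKM in WT. Granulocyte and monocyte markers were lower in KO in 6 of 8 (4 of 8 with a common sum), with summed levels of 4714 to 9568 FPKM in KO and 6008 to 8263 FPKM in WT. By pair, 5, 7 and 1 of the 8 were lower in KO in pairs 1 to 3, with medians of −0.54, −0.31 and 0.20. Erythroid markers were lower in KO in 4 of 5, with a median of −0.22 (−0.07 with a common sum) and summed levels of 20.5 to 46.1 FPKM in KO and 36.1 to 50.7 FPKM in WT. Hba-a1, an alpha globin, was at 3.79, 1.60 and 1.18 FPKM in KO 1 to KO 3, against 7.49, 4.07 and 11.9 FPKM in WT 1 to WT 3, with no overlap (−1.45, SE 0.42; limma, adjusted p = 1.00). The 10 megakaryocyte markers had a median of −0.02 with 6 lower in KO, and of 0.15 with 0 lower under a common sum. All tested genes had a median of 0.22 under a common sum, with 1503 of 11249 lower. The part of these gene groups in the complex I values was not tested.

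The difference also varied with transcript length. Complex I transcripts are short, with a median length of 871 bases over the tested members and 2832 bases over all tested genes with a length, in GENCODE M21 on GRCm38. Among the 661 other tested genes of 500 to 1000 bases the median difference was −0.14 and 74.9% were lower in KO; among the 22 members of that length it was −0.25 with 21 lower. In the class of 1000 to 2000 bases the medians were −0.16 for 10 members and 0.02 for 2435 other genes, and in that of 2000 to 4000 bases 0.00 for 4 members and 0.07 for 4515 other genes. Core subunits had a median length of 1623 bases and the other tested members 748 bases. Across the 37 members, which share the 6 libraries, length and difference had a Spearman correlation of 0.53.

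Among the other tested genes the difference also varied with level. Those with a mean of 100 to 200 FPKM had a median difference of −0.04 with 60.7% lower in KO, and those above 200 FPKM a median of −0.16 with 77.5% lower; the 15 and 6 members at these levels had medians of −0.26 and −0.27, with 13 and 6 lower. The 13 members with means of 50 to 100 FPKM had a median of −0.07 with 9 lower, beside −0.01 for other genes of that level. Below 50 FPKM the members did not keep to this order. The 2 of 25 to 50 FPKM, Ndufs5 and Ndufab1, had a median of −0.53, beside 0.03, and Ndufa11, of 10 to 25 FPKM, was at −0.42, beside 0.07. The median of −0.53 rests largely on Ndufs5, at −0.96, or −0.22 without KO 2, while Ndufab1 was at −0.10. Mean level and difference had a Spearman correlation of −0.22 and a Pearson correlation of −0.02 across the 37 members. The part of length and level in the complex I values was not tested.

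**Figure D4:**
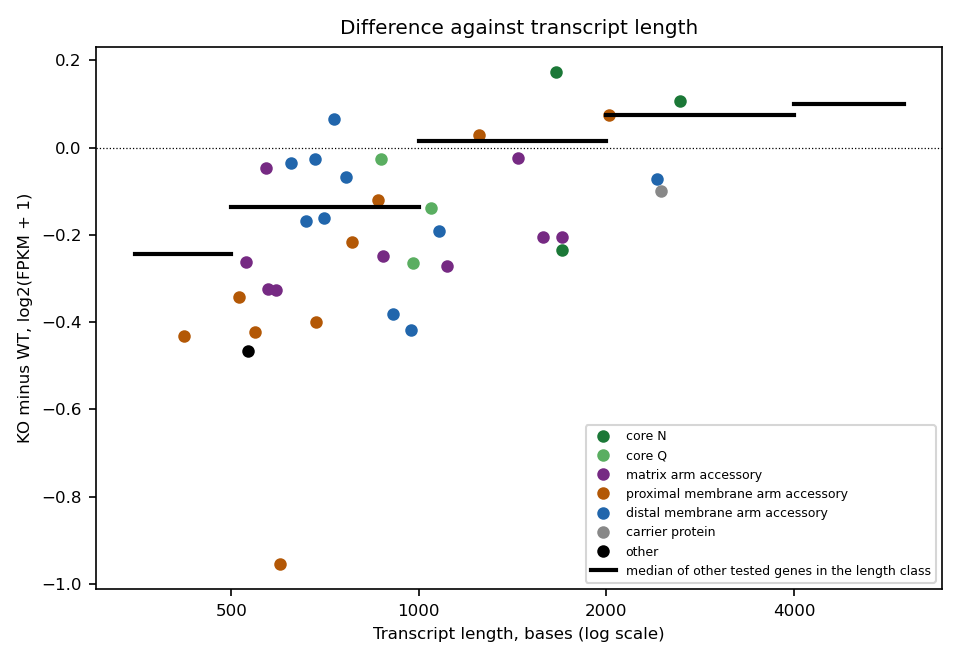
KO minus WT on the log2(FPKM + 1) scale against transcript length (log axis) for 36 of the 37 tested members, coloured by place in the complex, with black lines at the median of the other tested genes in each length class. The lines climb from −0.24 under 500 bases to 0.10 above 4000 bases, and most members under 1000 bases lie below 0.

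Assembly factors build complex I without staying in it. Of the 15 tested, 5 had lower and 10 higher values in KO, with a median of 0.03 and 0 called; the median turned to −0.04 with median-ratio scaling and −0.06 with quantile normalization, with 11 lower in each. Ecsit, a factor of the membrane arm, was at 16.6, 12.8 and 17.9 FPKM in KO 1 to KO 3, against 17.1, 6.93 and 15.2 FPKM in WT 1 to WT 3, so that pair 2 held most of the difference. Ndufaf6 was at 7.86, 13.1 and 9.79 FPKM in KO and 7.56, 7.62 and 10.3 FPKM in WT. Both overlapped between genotypes.

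The other respiratory complexes also lay mostly below 0 on the deposited scale, with 0 called in each. Complex II, succinate dehydrogenase, was lower in 4 of 4 with a median of −0.07; complex III, which takes electrons from ubiquinol, in 8 of 9 with −0.18; complex IV in 10 of 10 with −0.30; and complex V, the ATP synthase, in 13 of 16 with −0.19. With a common FPKM sum the medians were 0.10 with 0 of 4 lower for complex II, which was above 0 also without Rpph1 and Rmrp, 0.00 with 4 of 9 for complex III, −0.13 with 8 of 10 for complex IV and −0.01 with 8 of 16 for complex V. All tested genes then had a median of 0.22 with 1503 of 11249 lower. Cox7b, a small subunit of complex IV, was at 99.6, 188 and 136 FPKM in KO, against 144, 361 and 175 FPKM in WT, a difference of −0.61 (SE 0.37; limma, adjusted p = 1.00). Whether complex I differed from these complexes was not tested.

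The lists of mitochondrial biogenesis, of import and mass, and of complex I electron supply had medians near 0 on the deposited scale. Regulators of mitochondrial biogenesis split 6 lower to 6 higher (median −0.01), genes of mitochondrial import and mass 10 to 6 (−0.05), and genes of NADH supply and ubiquinone synthesis 8 to 8 (−0.01), with 0 called in each. A common FPKM sum moved these medians to 0.15, 0.12 and 0.15, and that of all tested genes to 0.22. For import and mass the pairs opposed each other, with medians of −0.24, 0.24 and −0.08 in pairs 1 to 3. Esrra, a nuclear receptor that drives respiratory genes, was at 13.2, 12.1 and 13.3 FPKM in KO, against 11.7, 6.25 and 8.47 FPKM in WT, with all KO libraries above all WT libraries. Its difference was 0.54 (SE 0.26; limma, adjusted p = 1.00). Tfb2m, a mitochondrial transcription factor of the same list, was at 14.9, 14.0 and 16.9 FPKM in KO, against 18.3, 21.7 and 17.4 FPKM in WT, with all KO libraries below all WT libraries (−0.31, SE 0.21; limma, adjusted p = 1.00). Pdss2, which makes the ubiquinone side chain, was at 6.96, 6.56 and 5.63 FPKM in KO and 5.18, 4.30 and 3.23 FPKM in WT, again with no overlap, a difference of 0.51 (SE 0.25; limma, adjusted p = 1.00). Coq7, a hydroxylase of ubiquinone synthesis, was at 18.5, 15.5 and 23.1 FPKM in KO and 19.0, 22.3 and 32.2 FPKM in WT, lower in 3 of 3 pairs with overlap between genotypes (−0.33, SE 0.26; limma, adjusted p = 1.00).

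**Figure D5:**
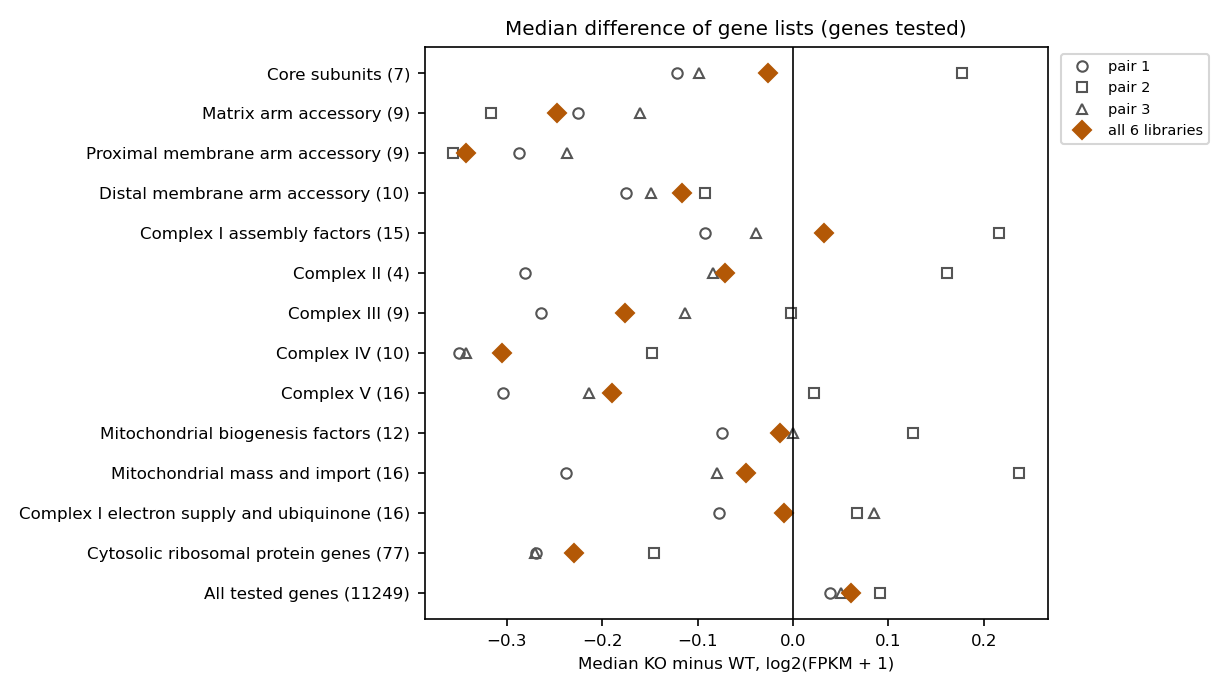
Median KO minus WT difference on the log2(FPKM + 1) scale for complex I groups, other mitochondrial lists, cytosolic ribosomal protein genes and all tested genes, over all 6 libraries (diamonds) and for each pair (open symbols), with the number of genes tested in brackets. Accessory groups and complexes III to V lie below 0 on the deposited scale, and pair 2 is above 0 for core subunits, assembly factors, complexes II and V, the biogenesis, import and electron supply lists and all tested genes.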

How the data were processed

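The deposited table gives FPKM per gene symbol for 6 libraries, rounded to 2 decimals. The authors' tools, per the submitters' processing notes, were FastQC, Trimmomatic 0.39, STAR 2.7.0a and RSEM 1.2.31, on build mm9; the annotation is not stated there. The table holds no depth. The spacing of low values against GENCODE lengths gave a clear step in WT 1 and WT 2 only, so no counting interval is given.

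Genes that reached 1 FPKM in 3 or more libraries were fitted on log2(FPKM + 1) with limma 3.58.1 in R 4.3.3 (eBayes with a trend, two-sided); the fit was tested on simulated data. Groups came from sample titles. Same-numbered KO and WT libraries deviated together from the means of their genotypes (r = 0.81, 0.59 and 0.38 for numbers 1, 2 and 3). Libraries of unlike number had r between −0.68 and 0.10. The numbers were therefore taken as pairs and used as a block in an alternative. This choice rests on the same values that were then fitted, not on the labels. Other alternatives changed scaling, pseudocount, filter, trend and libraries. Lengths are medians of APPRIS principal transcripts, or the longest protein-coding transcript where none is marked. Members and lists were chosen with earlier results of these data known. A single member enters every count and median and is not reported here by itself. Values by library are given for core subunits and, per other group, for the 3 members of smallest p and those of highest and lowest mean; of other lists, members were named among the 3 of smallest p. Mpo, Lyz2, Ndufa1, Ndufc2, Ndufa10, Ndufa13 and the further members given by their difference alone were added after their values were seen.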

Additional observations from a re-analysis of the deposited data

How the results depend on the processing

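The count of complex I genes called higher was 0 under every alternative, and that called lower was 0 except with the block without replicate 1 (1) or without replicate 3 (1), where Ndufs5 passed. The complex I median of −0.19 became −0.0134 with a common sum (also with the block), −0.0782 with a common sum without Rpph1 and Rmrp, −0.266 with median-ratio scaling and −0.134 with quantile normalization (also with the block). Leaving out a single library gave −0.339 to 0.0012, and leaving out a pair, with the block, −0.185 to −0.162. With either pseudocount, either filter, no trend or the replicate block alone it lay between −0.192 and −0.180. All tested genes gave 2 calls, 3 with the block, 1 with no filter on low values, 53 with the block and a common sum, 36, 142 and 118 with the block without replicate 1, 2 and 3, and 1 to 3 when a single library was left out. Of the 21 named members tested, differences changed sign with a common sum, with and without the block, for Ndufs3 (0.0379), Ndufs7 (0.15), Ndufab1 (0.0701), Ndufb6 (0.0072), Ndufb8 (0.15) and Ndufb2 (0.11). Without Rpph1 and Rmrp in the sum they did so for Ndufs7 (0.0850), Ndufab1 (0.0092), Ndufb8 (0.0864) and Ndufb2 (0.0404) and with quantile normalization, with and without the block, for Ndufb8 (0.0871). With the block, they did so without replicate 1 for Ndufb8 (0.0262) and Ndufb2 (0.0964), without replicate 2 for Ndufv1 (−0.0947), and without replicate 3 for Ndufs7 (0.12) and Ndufb8 (0.0238). Leaving out a single library changed the sign of Ndufs1 (−0.0397 to 0.32), Ndufs3 (−0.32 to 0.0454), Ndufs7 (−0.0837 to 0.0823), Ndufv1 (−0.0188 to 0.41), Ndufv2 (−0.53 to 0.0509), Ndufa2 (−0.62 to 0.0242), Ndufa6 (−0.78 to 0.12), Ndufs4 (−0.56 to 0.205), Ndufab1 (−0.31 to 0.19), Ndufb8 (−0.22 to 0.16) and Ndufb2 (−0.35 to 0.21). The causes were not tested. The files do not state depth, so no counting error could be set beside these values.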
